A study of Mus musculus with 4 samples.

Results

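Muscle cells contract with a shared set of proteins that exist in cardiac and skeletal versions, and 39 genes of this set were followed through 4 RNA-seq libraries of tongue-derived epithelial cells. The members were chosen by symbol, and all 39 were found among 69231 features of the deposited table, of which 54446 carry an Ensembl gene ID. The choice of the cardiac members drew on the high counts of such genes in 1 of these libraries, so the levels below are a description and no test is attached to them. Of the 39, 11 are mainly cardiac, 9 are shared by heart and slow skeletal muscle, 8 by heart and skeletal muscle in general, and 11 belong mainly to skeletal muscle. The first 28 are called the cardiac side and the last 11 the skeletal side.

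In a sarcomere, the contractile unit of striated muscle, myosin thick filaments pull on actin thin filaments when calcium binds the troponin complex. Calcium is released from the sarcoplasmic reticulum through ryanodine receptors and pumped back by SERCA ATPases, and Z-discs anchor the thin filaments. Heart and skeletal muscle express different genes for most of these parts, and atria and ventricles differ in their myosin light chains. The tongue is built largely of fast skeletal muscle under a stratified epithelium.

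The cells came from C57BL/6 mice and were grown in RPMI-1640 with fetal bovine serum. The study asked how the loss of Otub2, a deubiquitinase, alters transcription. It compared 2 wild-type libraries (Control 1 and Control 2) and 2 labelled as a systemic Otub2 knockout (3 and 4, called library 3 and library 4 here). The count columns of library 3 and library 4 are headed OE, but KO stands in the titles that carry these numbers, and the titles were followed. The labels give no age, no deleted exon and no word on whether the libraries derive from different animals or cultures, so their spread may be technical.

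Otub2 (chromosome 12, 103388682 to 103406350, plus strand, GRCm38) was read in every library, with 393 and 367 counts in the controls, 272 in library 3 and 495 in library 4, which is 27.5, 26.9, 19.0 and 24.0 CPM, counts scaled by library size with TMM factors. A gene-level count does not check a deletion. Total counts ran from 11882900 to 23017183. The 14 keratinocyte markers examined, among them Krt5, Krt14 and Trp63, were read in all 4 libraries and took 9.40%, 8.70%, 2.48% and 5.69% of gene counts in Control 1, Control 2, library 3 and library 4. Library 3 stood apart: 14 salivary gland genes, led by Mucl2, took 26.7% of its gene counts and at most 0.00309% of those of the other 3. No gene passed edgeR's quasi-likelihood test between the groups at an adjusted p of 0.05 (0 of 21916, 0.0%), while 2064 genes were higher and 3325 lower when that threshold was applied to the unadjusted p. DESeq2 called 751 higher and 262 lower, whereas edgeR with library size only called 37 higher and 1433 lower, so the balance of directions depended on the scaling and tool.

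The 4 promoter sequences below belong to pairs that the levels then separate: 2 striated-muscle actins, cardiac Actc1 and skeletal Acta1, and 2 myosin light chains, ventricular Myl3 and atrial Myl7. They come from the RefSeq promoter table (GRCm38.p6) and end at the RefSeq or an earlier GENCODE transcription start, whichever is upstream, each written 5′ to 3′ on the gene's strand. Capitals mark CArG boxes, the motif bound by serum response factor, and the MCAT motif CATTCC or its reverse complement, which TEAD factors bind.
Actc1, chr2:114052888-114053125, minus strand: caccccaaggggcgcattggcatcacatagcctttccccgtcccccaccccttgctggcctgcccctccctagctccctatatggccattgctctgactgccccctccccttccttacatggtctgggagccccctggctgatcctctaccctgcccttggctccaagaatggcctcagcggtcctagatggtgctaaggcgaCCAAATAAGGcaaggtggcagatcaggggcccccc
Acta1, chr8:123894776-123895025, minus strand: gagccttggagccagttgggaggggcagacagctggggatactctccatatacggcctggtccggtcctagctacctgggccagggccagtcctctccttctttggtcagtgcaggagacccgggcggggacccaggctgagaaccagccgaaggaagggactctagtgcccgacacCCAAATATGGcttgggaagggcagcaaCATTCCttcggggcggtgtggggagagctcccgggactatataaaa
Myl3, chr9:110763428-110763645, plus strand: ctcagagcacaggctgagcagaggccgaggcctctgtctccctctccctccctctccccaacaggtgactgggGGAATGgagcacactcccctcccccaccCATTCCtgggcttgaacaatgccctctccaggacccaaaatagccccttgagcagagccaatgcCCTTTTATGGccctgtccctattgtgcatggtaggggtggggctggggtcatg
Myl7, chr11:5898783-5899032, minus strand: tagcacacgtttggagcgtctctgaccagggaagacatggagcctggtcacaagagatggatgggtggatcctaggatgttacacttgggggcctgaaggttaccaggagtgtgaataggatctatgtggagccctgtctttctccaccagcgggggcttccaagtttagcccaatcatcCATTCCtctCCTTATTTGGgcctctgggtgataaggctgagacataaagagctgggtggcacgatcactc

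Each of the 4 windows holds 1 CArG box, at 47 to 38, 73 to 64, 85 to 76 and 61 to 52 bases before the RefSeq start of Actc1, Acta1, Myl3 and Myl7. Of the 39 members, 35 were in the promoter table and 32 had an entry whose start lay within 100 bases of a GENCODE coding transcript. Searched on both strands over the 250 bases before the start, a CArG box was found in 5 of 24 cardiac-side and 1 of 8 skeletal-side promoters, against 1.47% of 32851 promoters. CATTCC was found in 7 of 24 and 2 of 8, against 12.6%, a MEF2 motif in 4 of 24 and 1 of 8, against 2.92%, and the GATA motif AGATAA in 2 of 24 and 0 of 8, against 9.99%. These matches are letters in a window and say nothing of binding.

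The cardiac side was abundant in library 3 and scarce elsewhere. The 39 genes together took 0.0777% (95% exact binomial interval 0.0762 to 0.0793) of gene counts in Control 1, 0.0905% (0.0887 to 0.0922) in Control 2, 2.39% (2.38 to 2.39) in library 3 and 0.117% (0.116 to 0.119) in library 4. These intervals, like all those below, cover counting error only. In library 3, 24 of the 26 cardiac-side members that passed the filter on low counts were at least 2-fold above both controls, where 15.1% of all genes tested were. The cardiac-side genes had been chosen for their level in this library, so nothing is read from that count. The 2 members below the filter, Nppa and Ckmt2, were above both controls too, at 137 and 12373 counts. In library 4, 2 of 26 were at least 2-fold above both controls (7.89% of all genes tested) and 8 were at least 2-fold below (25.4% of all genes). In bulk RNA, fewer or more cells of a type and a different level per cell cannot be told apart.

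**Figure D1:**
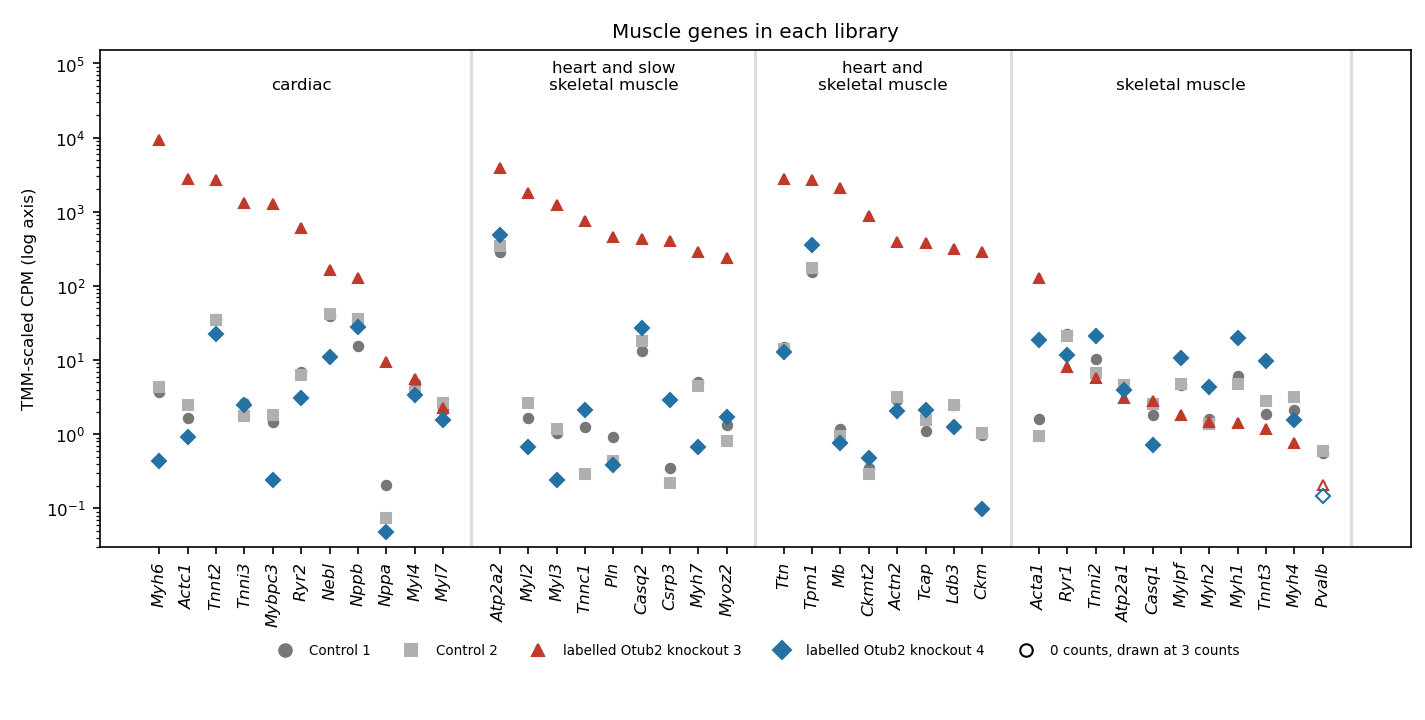
TMM-scaled CPM (log axis) of all 39 muscle genes in the 4 libraries, 1 point per library, grouped by the muscle that expresses them; open points are genes with 0 counts, drawn at the level of 3 counts. The red triangles of library 3 stand far above the other points for most of the cardiac side. They stand less far above for Nppb and Nebl, and near the other points for Myl4 and Myl7. For most of the skeletal side they lie at or below the controls, with Acta1 far above and Casq1 slightly above all other points.

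Among thick filament genes, Myh6, the alpha myosin heavy chain of the adult mouse heart (chromosome 14, GRCm38), had 53, 60, 134463 and 9 counts in Control 1, Control 2, library 3 and library 4, or 3.71, 4.40, 9390 and 0.436 CPM. Library 3 was thus 2137 times the higher control, and library 4 lay below both controls. Myh7, the beta heavy chain of the fetal ventricle and slow skeletal fibres, was at 5.11, 4.54, 286 and 0.678 CPM. Per length, on the deposited FPKM scale, Myh6 was at 869 and Myh7 at 20.6 in library 3, a ratio of 42.1 (95% interval 40.8 to 43.4). In the controls the same ratio was 0.93 (0.64 to 1.34) and 1.24 (0.855 to 1.80). These neighbouring genes share sequence, since 22.6% of the 50-base stretches of the Myh6 transcript also occur in another gene, mostly Myh7, so reads between them may be split unevenly. Mybpc3, the cardiac myosin-binding protein C, was at 1.47, 1.83, 1259 and 0.242 CPM, and the giant spring protein Ttn at 14.9, 13.9, 2776 and 13.0 CPM.

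The myosin light chains separated by heart chamber in library 3. Myl2, the ventricular regulatory light chain, was at 1.68, 2.64, 1807 and 0.678 CPM, and Myl3, the ventricular essential light chain, at 1.05, 1.17, 1250 and 0.242 CPM, in Control 1, Control 2, library 3 and library 4. Their atrial counterparts lacked this excess. Myl7 had 30, 36, 32 and 32 counts (2.10, 2.64, 2.24 and 1.55 CPM), and Myl4 had 70, 51, 80 and 71 counts (4.90, 3.74, 5.59 and 3.44 CPM). On the FPKM scale the ratio of Myl7 to Myl2 was 0.00409 (0.0028 to 0.00577) in library 3, against 4.13 (2.33 to 7.38) and 3.31 (2.02 to 5.40) in the controls and 7.55 (3.92 to 15.3) in library 4. The ratio of Myl4 to Myl3 was 0.00197 (0.00156 to 0.00245) in library 3, 2.06 (1.17 to 3.87) and 1.41 (0.788 to 2.64) in the controls and 6.26 (2.56 to 19.9) in library 4. Both Myl3 and Myl7 hold a CArG box and CATTCC in the windows printed above, at 380 and 2.36 FPKM in library 3.

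Other genes that differ between the chambers gave a mixed picture. Nppa, the atrial natriuretic peptide, had 3, 1, 137 and 1 counts, so library 3 was at 9.57 CPM, a level that ranked 10528 by counts among all genes with an ID there. Nppb, the B-type natriuretic peptide of stretched myocardium, was at 15.5, 35.5, 129 and 28.2 CPM, and library 3 was 3.64 times the higher control. The controls were far apart in Nppb, and library 4 lay between them. Sln, an atrial regulator of SERCA, had 0, 6, 4 and 16 counts, and Bmp10, an atrial growth factor, 2, 6, 0 and 3. Kcna5, an atrial potassium channel, had 5, 4, 174 and 6. These 3 genes did not pass the filter on low counts and were picked after their values were seen. Of the 4 non-member ventricular genes tested, Lbh, Irx4, Mpped2 and Hey2, all were at least 2-fold above both controls in library 3 (15.1% of all genes). The transcription factor Irx4 was at 1.89, 2.05, 37.8 and 15.9 CPM and Lbh at 7.70, 6.01, 112 and 20.1 CPM. Of 5 non-member atrial genes tested, 2 were at least 2-fold above in library 3 (15.1% of all genes), Tbx5 and Kcnj3. Kcnj3, a potassium channel subunit, was at 0.56, 0.513, 22.2 and 0.0484 CPM. In library 4, 1 of the 5 was above (7.89% of all genes) and 3 were below (25.4%). Dkk3, a secreted protein, was at 27.4, 41.1, 74.0 and 143 CPM and the nuclear receptor Nr2f2 at 6.93, 9.08, 9.43 and 11.7 CPM, so both were read in every library. In library 4, 2 of the 4 ventricular genes were above (7.89% of all genes) and 1 was below (25.4%).

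Library 3 exceeded both controls at least 2-fold for all 6 cardiac-side thin filament genes (15.1% of all genes). These genes had been chosen for their level in library 3, so nothing is read from that count. Actc1, cardiac alpha-actin, was at 1.68, 2.49, 2758 and 0.919 CPM in Control 1, Control 2, library 3 and library 4, and was the member with the highest FPKM in library 3 (1060). The troponin genes Tnnt2, Tnni3 and Tnnc1, which bind tropomyosin, inhibit actin and bind calcium in this order, were at 2714, 1329 and 748.5 CPM in library 3. In the other 3 libraries Tnni3 ran from 1.76 to 2.66 CPM and Tnnc1 from 0.293 to 2.13 CPM. Tnnt2 was readily counted without library 3, at 35.6 and 34.9 CPM in the controls and 22.4 CPM in library 4. The order of the 3 troponins per length depended on the length used. On the FPKM scale, whose lengths join all annotated exons, Tnnt2 (7752 bases) was lowest at 218 against 401 for Tnni3 and 447 for Tnnc1, whereas per kilobase of the longest coding transcript (1200 bases) Tnnt2 was highest at 2262 CPM, against 1457 and 1038. Tpm1, alpha-tropomyosin, which many cell types express, was at 155, 175, 2696 and 354 CPM. Nebl, nebulette, was at 39.1, 42.5, 165 and 11.1 CPM, and library 3 was 3.89 times the higher control.

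Z-disc genes were all far above the controls in library 3. Csrp3, a muscle LIM protein, was at 0.35, 0.22, 403 and 2.90 CPM, and was the cardiac-side member with the largest excess in library 4, 8.30 times the higher control on 60 counts against 5 and 3. Tcap, telethonin, was at 1.12, 1.54, 376 and 2.13 CPM. Actn2, the alpha-actinin of striated muscle, Ldb3, a PDZ and LIM protein, and Myoz2, calsarcin-1, were at 386, 316 and 239 CPM in library 3 and at no more than 3.15 CPM in any other library.

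Of 8 calcium handling genes, 4, all on the cardiac side, were at least 2-fold above both controls in library 3 (15.1% of all genes). At least 2-fold below were 2, Pvalb and Ryr1 of the skeletal side (16.1%). The cardiac-side genes had been chosen for their level in library 3, so nothing is read from the count above. Atp2a2 (SERCA2), which has a housekeeping as well as a cardiac isoform, was at 288, 349, 3948 and 485 CPM, and library 3 was 11.3 times the higher control. Casq2, cardiac calsequestrin, was at 13.4, 17.9, 429 and 27.3 CPM. Ryr2, the cardiac calcium release channel, was at 6.86, 6.37, 603 and 3.05 CPM, and Pln, phospholamban, which restrains SERCA2, at 0.91, 0.439, 457 and 0.387 CPM. Of the Pln transcript, 60.3% of 50-base stretches lie in overlapping genes, Gm47644 and Cep85l, so its counts are uncertain. Among energy genes, Mb, myoglobin, was at 1.19, 0.952, 2070 and 0.774 CPM, and 34.0% of its 50-base stretches lie in the overlapping gene Gm49540. Ckmt2, the mitochondrial creatine kinase of striated muscle, had 5, 4, 12373 and 10 counts, and its library 3 level was 2469 times the higher control. Ckm, the cytosolic muscle creatine kinase, was at 0.98, 1.03, 290 and 0.0968 CPM.

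Outside library 3 most of the cardiac side sat at very low counts, and its order differed from that in library 3. Across the 28 cardiac-side genes, Spearman's rho of FPKM was 0.932 between the controls, 0.814 and 0.717 between library 4 and Control 1 and Control 2, and 0.233, 0.241 and 0.18 between library 3 and Control 1, Control 2 and library 4. The genes share length and base composition in every pair, and rho is a description. Library 4 held from 0.00669% (Myh6) to 100% (Myl7) of the counts of library 3. The cardiac-side median was 2.31 and 2.56 CPM in the controls and 1.86 CPM in library 4. Genes of lung and airway epithelium, examined as markers of a tissue not sampled, had medians of 0.56, 0.806, 0.349 and 0.339 CPM in Control 1, Control 2, library 3 and library 4. Single genes of that list were higher, such as Lyz2, also a macrophage gene, with 357, 421, 1258 and 630 counts. The cardiac-side members with the highest CPM in the controls were Atp2a2, Tpm1, Nebl, Tnnt2, Nppb, Casq2 and Ttn, followed by Ryr2 and Myh7.

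The skeletal side did not share the excess of library 3. Of its 11 members, all tested, 1 was at least 2-fold above both controls in library 3 (15.1% of all genes) and 5 were at least 2-fold below (16.1% of all genes). In library 4, 6 were at least 2-fold above (7.89%) and 2 at least 2-fold below (25.4%). Library 3 had a median log2 difference from the control mean of -0.88 and library 4 of 1.16, where all genes tested had -0.03 and -0.07. Between the controls the skeletal median was 0.05. For the 10 tested mainly cardiac members the medians were 6.37 and -0.85, and in library 4 the sign was opposite to the skeletal one. Members shared by heart and slow skeletal muscle had 9.22 and 0.61, so in library 4 their sign was that of the skeletal side. Those shared by heart and skeletal muscle in general had 7.58 and -0.40. The cardiac-side genes had been chosen for their level in library 3, so nothing is read from their medians there. The counts of 5 below in library 3 and 6 above in library 4 depended on scaling and became 8 with library size alone and 3 with upper quartile scaling.

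Acta1, skeletal alpha-actin, which the heart also expresses at a low level, was the exception on the skeletal side. It had 23, 13, 1855 and 381 counts, or 1.61, 0.952, 129.5 and 18.4 CPM, so both library 3 and library 4 lay above both controls, at 80.5 and 11.45 times the higher one. The fast myosin heavy chains stayed low in library 3. Myh1 was at 6.16, 4.76, 1.40 and 20.0 CPM, Myh2 at 1.61, 1.39, 1.47 and 4.36 CPM and Myh4 at 2.10, 3.22, 0.768 and 1.55 CPM in Control 1, Control 2, library 3 and library 4. From 18.9% to 32.1% of the 50-base stretches of these 3 transcripts occur in another gene, mostly one another, so the split between them is uncertain.

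The fast-fibre members Tnnt3, Tnni2 and Mylpf were highest in library 4. Tnnt3, fast troponin T, had 27, 38, 17 and 203 counts (1.89, 2.78, 1.19 and 9.82 CPM), and library 4 was 3.53 times the higher control. Tnni2, fast troponin I, was at 10.2, 6.67, 5.66 and 21.4 CPM, and Mylpf, the fast regulatory light chain, at 4.55, 4.83, 1.82 and 10.6 CPM. Other fast-fibre genes did not follow. Pvalb, parvalbumin, the calcium buffer of fast fibres, had 8 and 8 counts in the controls and 0 in library 3 and library 4, which allows up to 0.21 and 0.145 CPM. Ryr1, the skeletal calcium release channel, was at 22.3, 21.2, 8.17 and 11.8 CPM, and Casq1, skeletal calsequestrin, at 1.82, 2.56, 2.79 and 0.726 CPM. Atp2a1 (SERCA1) was at 4.06, 4.69, 3.07 and 3.92 CPM, with library 3 and library 4 below both controls, but 18.3% of its 50-base stretches lie in the overlapping gene Rabep2.

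**Figure D2:**
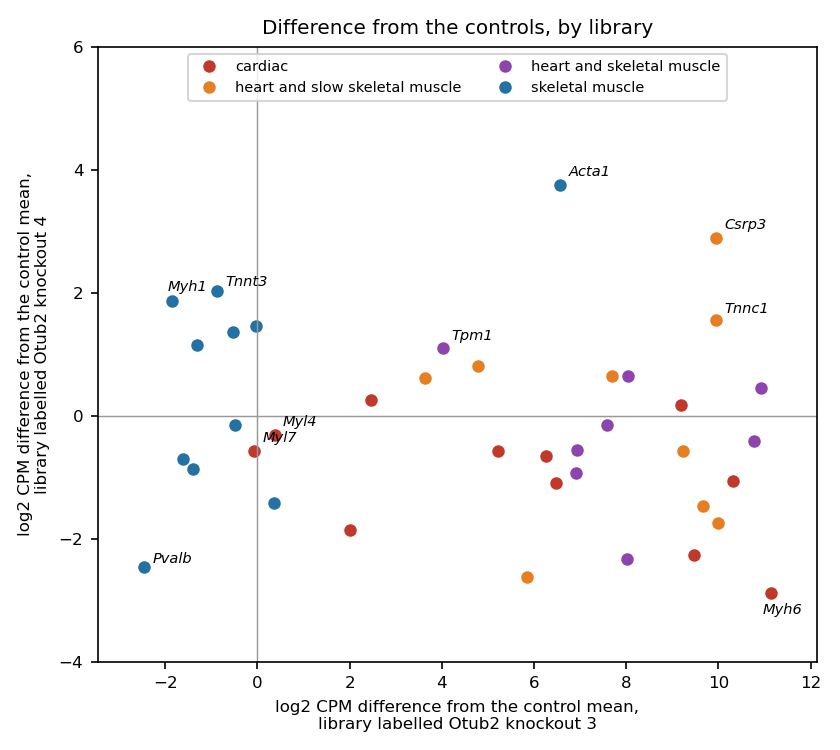
Log2 CPM difference from the control mean (prior count 2) of each muscle gene in library 3 (horizontal axis) and library 4 (vertical axis), 1 point per gene, coloured by class. Both axes use the same controls; cardiac-side genes spread from about 0 to 11.14 (Myh6) in library 3 on both sides of 0 in library 4, while Acta1 is high in both and Myh1 and Tnnt3 are high in library 4 but not in library 3.

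Library 3 and library 4 were also set side by side. Of the 37 members tested, 8 lay above both controls in both libraries (26.9% of all genes did), namely Tnnc1, Atp2a2, Csrp3, Tcap, Myoz2, Tpm1, Casq2 and Acta1. Below both controls in both libraries lay 4 (33.1% of all genes), namely Myh4, Atp2a1, Pvalb and Ryr1. The 2 comparisons share their controls.

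Setting isoforms side by side within a library removes the library's scaling. Of 16 pairs of a cardiac and a skeletal form, the cardiac form had the higher FPKM in 8 and 8 in the controls, 15 in library 3 and 7 in library 4. The median ratio was 1.09, 1.11, 146 and 0.599. In library 3 and library 4 this median leaves out Tnnc1 over Tnnc2, whose second gene had 0 counts. With that pair included, the library 4 median would lie between 0.599 and 0.971. The cardiac forms had been chosen for their level in library 3, so nothing is read from its count of pairs or its median. Some pairs also share Tnni3 or Tnnt2 as the cardiac form. By counts the cardiac form led in 9, 9, 15 and 9 pairs, and per length of the longest coding transcript in 10, 9, 15 and 10, so whether it led in most pairs outside library 3 depended on the length. The ratio of Tnni3 to fast Tnni2 was 0.189 (0.129 to 0.271) and 0.191 (0.117 to 0.303) in the controls, 170 (137 to 215) in library 3 and 0.0835 (0.0613 to 0.112) in library 4. Against slow Tnni1, the form of slow fibres and the fetal heart, Tnni3 stood at 563 (436 to 740) in library 3 and between 0.735 and 1.44 in the others. Tnnt2 over Tnnt3 was 3.84 (2.61 to 5.89), 2.56 (1.84 to 3.66), 467 (291 to 801) and 0.466 (0.394 to 0.552) in Control 1, Control 2, library 3 and library 4. The library 4 value turned with the length used, to 2.28 by counts and 2.05 per length of the longest coding transcript.

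The actin pair differed between the libraries as well. Actc1 over Acta1 was 0.991 (0.535 to 1.84) and 2.48 (1.28 to 5.13) in the controls, 20.2 (19.3 to 21.2) in library 3 and 0.0473 (0.0282 to 0.075) in library 4. In library 3 the skeletal form was thus a minor partner, and in library 4 it was the main one of a scarce pair. Ryr2 over Ryr1 was 0.234 and 0.228 in the controls, 56.0 (46.7 to 67.8) in library 3 and 0.196 in library 4. For the SERCA pumps the cardiac form already led in the controls, at 40.6 and 42.6, and stood at 735 (547 to 1010) in library 3 and 70.7 (56.8 to 89.1) in library 4. Tnnc2, fast troponin C, had 4, 2, 0 and 0 counts, so the ratio of Tnnc1 to Tnnc2 in library 3 was at least 2750, taking 3 counts for the second gene.

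**Figure D3:**
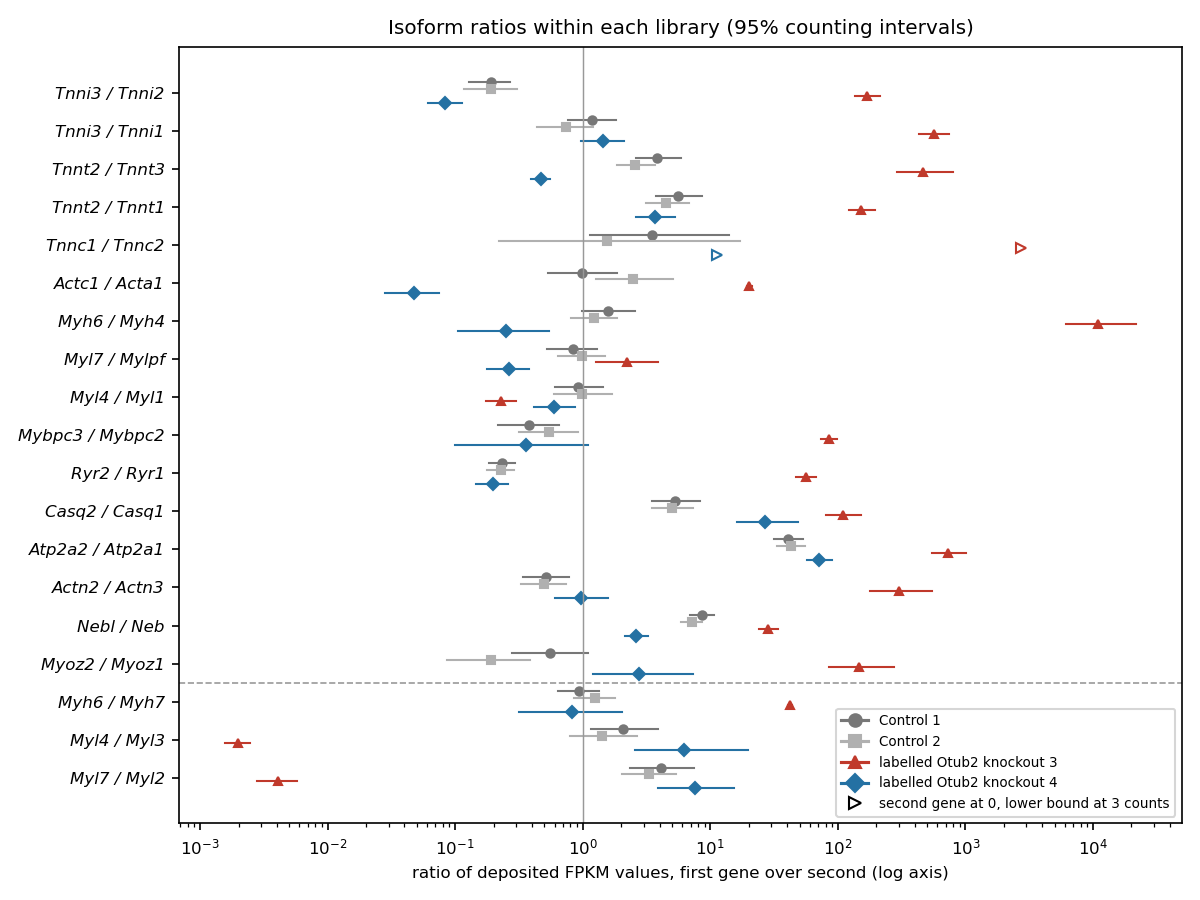
Ratio of deposited FPKM values (log axis) for 16 cardiac to skeletal pairs (above the dashed line) and 3 pairs of cardiac forms (below it) in the 4 libraries, with 95% exact binomial counting intervals. Open arrowheads are ratios with 3 counts taken for a second gene that had 0 counts. Library 3 lies to the right of 1 for every cardiac to skeletal pair except Myl4 over Myl1, and far to the left for the atrial over ventricular light chains. The cardiac forms had been chosen for their level in library 3, so nothing is read from the number of pairs to the right.

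The pair that went the other way in library 3 was Myl4 over Myl1, the essential light chain of fast fibres, at 0.229 (0.173 to 0.302), or 0.588 per length of the longest coding transcript. Atrial Myl4 had 80 counts there against 156 of Myl1. Myl7 over Mylpf, with 32 against 26 counts, gave 2.22 (1.28 to 3.87), the lowest of the other 15. Both ratios rest on low counts.

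Genes of the heart outside the 39 were examined in lists drawn up with earlier results of these data known. Of 28 tested contractile, Z-disc and calcium-release genes, all 28 were at least 2-fold above both controls in library 3 (15.1% of all genes). In library 4, 5 were above (7.89%) and 5 below (25.4%). Des, the muscle intermediate filament desmin, was at 5.53, 3.0, 645 and 16.8 CPM and Hspb7, a cardiac small heat shock protein, at 1.05, 0.732, 573 and 3.34 CPM. Fhl2, a LIM protein that other cells also express, was at 124, 119, 681 and 121 CPM.

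Transcription factors of the heart were present at lower levels. Of 18 tested, 14 were at least 2-fold above both controls in library 3 (15.1% of all genes) and 2 at least 2-fold below (16.1%). Smyd1, a muscle methyltransferase, was at 1.89, 2.27, 114 and 1.11 CPM, and Mef2a at 38.1, 47.5, 114 and 86.9 CPM. The core factors Gata4, Tbx20, Hand2 and Nkx2-5, named after their values were seen, had 339, 642, 255 and 201 counts in library 3, and 11, 14, 5 and 0 in library 4. Isl1, also named after its values were seen, which marks cardiac progenitors and is also an oral patterning factor, had 852, 693, 16 and 51 counts. In library 4, 8 of the 18 were at least 2-fold below both controls (25.4% of all genes) and 2 at least 2-fold above (7.89%).

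Channels and receptors of heart muscle gave 12 of 17 at least 2-fold above in library 3 (15.1% of all genes). In library 4, 0 were above (7.89%) and 5 below (25.4%), and the count below is near the share of all genes. Corin, the protease that processes natriuretic peptides, was at 1.96, 1.25, 74.9 and 0.532 CPM and Cacna1c, the L-type calcium channel, at 6.30, 6.23, 58.7 and 8.95 CPM. Gja1, connexin 43, which epithelia express strongly, was at 535, 643, 830 and 490 CPM and did not reach 2-fold. Hcn4, the pacemaker channel, picked after its values were seen, had 9, 6, 13 and 2 counts.

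Skeletal muscle genes outside the 39 were mixed in library 3. Of 26 tested, 10 were at least 2-fold above both controls in library 3 (15.1% of all genes). At least 2-fold below were 4, near the share of all genes (16.1%). The 4 most abundant were Eno3, muscle enolase, at 3.71, 2.64, 439 and 13.0 CPM, Pygm, muscle glycogen phosphorylase, at 6.79, 6.15, 312 and 3.10 CPM, Pgam2, muscle phosphoglycerate mutase, at 2.52, 3.0, 132 and 1.35 CPM, and Klhl41, a sarcomere-associated kelch protein, at 1.96, 1.32, 38.7 and 1.84 CPM. Heart muscle also uses the first 3 enzymes. The factors that specify skeletal muscle were low throughout, and 3 are given after their values were seen. Myod1 had 27, 13, 4 and 6 counts, Myog 1, 3, 1 and 19, and Pax7 17, 27, 8 and 8. Of the 5 myogenic factors tested, 3 were at least 2-fold below both controls in library 3 (16.1% of all genes). In library 4, 1 of the 26 skeletal genes was at least 2-fold above, Eno3 (7.89% of all genes), and 12 were below (25.4%).

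**Figure D4:**
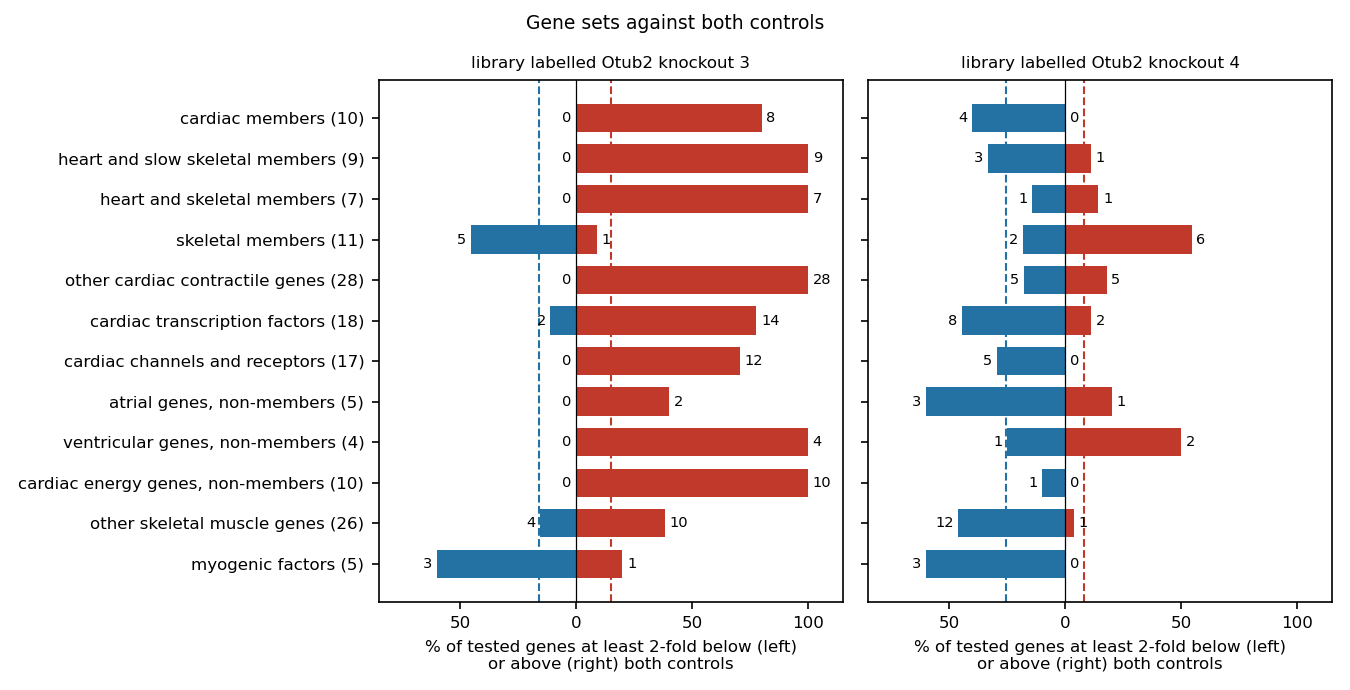
Share of tested genes at least 2-fold above (red, right) or below (blue, left) both controls in library 3 and library 4, for the 39 muscle genes by class and for further heart and skeletal muscle lists; numbers beside bars are gene counts, numbers in brackets are genes tested and dashed lines are the shares among all 21916 genes tested (15.1% above and 16.1% below in library 3, 7.89% and 25.4% in library 4). In library 3 all cardiac lists pass the red dashed line, but the cardiac-side members had been chosen for their level there. In library 4 the skeletal members reach furthest past it, with 6 of 11, while cardiac lists lie on both sides of it.

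Markers of several other cell types were also higher in library 3. Of all genes tested, 15.1% were at least 2-fold above both controls there and 16.1% at least 2-fold below. Of 8 endothelial markers tested 5 were at least 2-fold above both controls, with summed levels of 88.2, 79.8, 275 and 88.7 CPM, and Pecam1 at 20.7, 16.6, 75.3 and 21.5 CPM. Of 9 fibroblast markers 8 were above, with sums of 156, 204, 729 and 487 CPM. Of 5 globin and erythroid genes tested all 5 were above, with sums of 35.1, 20.4, 199 and 57.9 CPM. Of 12 smooth muscle markers tested that are not members, 7 were above, Des among them, with sums of 319, 355, 1370 and 357 CPM. Tagln, a defining marker that did not pass the filter on low counts, had 7, 9, 12 and 6 counts. Other genes of this list were higher in library 3, with Acta2 at 5.25, 7.40, 120 and 31.2 CPM and Myh11 at 3.85, 4.25, 25.7 and 4.11 CPM. None of the 12 tested was at least 2-fold below both controls in library 3. Of 5 epicardial markers tested 2 were above and 2 below, and Wt1 had 21, 26, 9 and 14 counts. Tagln, Acta2, Myh11, Wt1 and Pecam1 were named after their values were seen. Of 9 lung and airway markers tested 1 was above and 4 were below. Of the 14 keratinocyte markers 0 were above and 4 below, and of the 14 salivary genes the 8 that passed the filter on low counts were above, while Dcpp1, Dcpp2, Dcpp3 and Smr3a, which did not pass, had 0 counts in library 3. The part of these cell types, and of the salivary gland transcripts, in the levels of the muscle genes was not tested.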

How the data were processed

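The authors deposited a raw count per gene and library and an FPKM value for each, per the file headers. FPKM lengths lay within 10% of the joined exons of GENCODE M21 (GRCm38) for all 39 members, and that annotation gave the coordinates. HISAT2, DESeq and the human build GRCh38 appear in the submitters' processing notes, while the gene IDs are mouse. Not given in the sources used here were the counting tool, strand setting and treatment of shared reads, so overlapping, antisense and near-identical genes are uncertain. Features without an Ensembl ID (14785), with 0.914% to 2.84% of counts per library, were left out. The number of unused value columns was 0.

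CPM used TMM factors (1.18, 1.19, 0.65 and 1.10 for Control 1, Control 2, library 3 and library 4), and log2 differences a prior count of 2. Genes kept by filterByExpr (21916) were tested with the quasi-likelihood test of edgeR 4.0.16 (R 4.3.3) with Benjamini-Hochberg adjustment, and with DESeq2 1.42.0 as an alternative. Member calls need 1 library to be at least 2-fold beyond both controls. Ratio intervals are exact binomial intervals on counts, and 0 counts were set to 3. The edgeR step was tested on simulated data. Scaling, filter, prior count, gene length and each library were varied. Stretches of 50 bases of each member's longest coding transcript were compared across GENCODE transcripts.

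Members, lists and tests were chosen with earlier results of these data known. All members may be named. Given in full are up to 3 per role with the highest FPKM in library 3 and every isoform pair, from each other list up to 4 genes with the highest CPM, and up to 5 non-members with the largest excess in library 3 (0.5 CPM added, at least 1000 counts, no predicted or sex chromosome genes). Some list genes that this rule names are not reported here.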

Additional observations from a re-analysis of the deposited data

How the results depend on the processing

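The count of genes called between the groups was 0 with edgeR, 1013 with DESeq2, 1470 with library size only and 9 without the filter on low counts. Leaving out 1 library gave 0 to 9456 calls, with 9456 without library 3, 8204 without library 4 and 0 without either control. The skeletal members at least 2-fold above both controls in library 4 numbered 6, and 3 with upper quartile scaling, and those below in library 3 numbered 5, and 8 with library size only. Cardiac-side members above in library 4 numbered 2, 1 with upper quartile scaling, 1 with library size only, and 3 to 4 when a control was left out, with 4 without Control 1. The mainly cardiac median log2 difference in library 3 was 6.37, 5.89 with upper quartile scaling and 5.51 with library size only. In library 4 it was -0.85, -1.28 with upper quartile scaling and -0.88 to -0.73 without a control. The skeletal median in library 3 was -0.88, -1.33 with upper quartile scaling, -1.67 with library size only, -0.93 with a prior count of 0.5 and -1.15 to -0.84 without a control. In library 4 it was 1.16, 0.72 with upper quartile scaling, 1.05 with library size only and 1.06 to 1.11 without a control. The cause was not tested. None of the medians changed sign in these alternatives. The 1013 calls of DESeq2 were mostly higher (751) and the 1470 with library size only mostly lower (1433). Pairs led by the cardiac form in library 4 numbered 7, 9 by counts and 10 by transcript length, and Tnnt2 over Tnnt3 there turned from 0.466 to 2.05 with transcript length. TMM factors without library 3 and transcript lengths were added after seeing the data. No paired analysis was possible because the groups share no replicate numbers. Genes with few counts outside library 3 limit how far their levels there can be ordered.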

Other observations

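Genes of cardiac fuel use, outside the 39, were high in library 3 too. All 10 tested were at least 2-fold above both controls there (15.1% of all genes). Pygm is counted here and also among the skeletal muscle genes above. In library 4, 0 were above (7.89%) and 1 below (25.4%). Lpl, the lipase that releases fatty acids from circulating lipid, was at 6.37, 4.83, 1530 and 3.0 CPM in Control 1, Control 2, library 3 and library 4. Fabp3, the heart fatty acid-binding protein, had 3, 0, 13775 and 6 counts. Ldhb, the heart form of lactate dehydrogenase, was at 6.65, 8.64, 494 and 9.34 CPM, and Hadha, a mitochondrial enzyme of fatty acid oxidation that most cells use, at 70.5, 81.7, 480 and 128 CPM.

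Of 2986 genes ranked by their excess in library 3, cardiac-side members held 20 of the top 100 places. The ranking took only genes with at least 1000 counts in library 3, and Acta1, at place 214, was the only skeletal-side member in it. The cardiac-side genes had been chosen for their level in this library, so nothing is read from their places. The 5 non-members with the largest excess were not muscle genes. Car6, a secreted carbonic anhydrase of saliva, had 22, 14, 766412 and 33 counts. Mucl2 had 21, 16, 5462635 and 348, Scgb1b27 6, 3, 673738 and 34, Mup5 1, 3, 250920 and 8, and Pip 0, 0, 299450 and 13. The relation of these transcripts to the cardiac ones in library 3 was not tested.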
